A study of Arabidopsis thaliana with 57 samples.

Results

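The gene expression changes that 3 Arabidopsis lines shared between 2 h and 4 h of dexamethasone (DEX) treatment are described here, in sorted late stomatal lineage cells in which neither unmodified SPCH nor unmodified FAMA was induced. SPEECHLESS (SPCH) and FAMA are bHLH transcription factors of the stomatal lineage, and the experiment followed cells after either factor was induced. The 3 lines carry a nuclear localization signal alone (NLS), SRDX-FAMA or SRDX-SPCH, where SRDX is a domain that turns a transcription factor into a dominant repressor. The SRDX fusions still carry the factor and were strongly expressed, so only NLS is without an induced form of SPCH or FAMA. All libraries whose labels name these lines were taken, apart from 1 near copy described below, which gave 33 of the 57 libraries of the series. NLS had 3, 4 and 4 libraries at 2, 3 and 4 h, SRDX-FAMA 4, 4 and 3, and SRDX-SPCH 4, 3 and 4, so that each time point held 11 libraries.

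All plants, the controls included, were Col-0 seedlings 10 days after germination that carry FAMAp::LHG4-GR, a synthetic activator driven by the FAMA promoter, and an OPp construct in front of a Venus-tagged protein. DEX at 30 µM moved LHG4-GR into the nucleus, and it was given to every sample, so no library is without DEX. True leaves were collected after 2, 3 or 4 h and protoplasted for 2 h, and about 3000 Venus-positive cells per sample were sorted for mRNA sequencing. The cells were those with an active FAMA promoter, mainly guard mother cells and guard cells with some myrosin cells, and the plants kept their own SPCH and FAMA genes. Hours of DEX and time since handling rise together in this design and cannot be told apart. The clock hour of collection is not given in the sources used here. Whether time of day rose with them is therefore not known, and if it did, it cannot be told apart from them. Whether replicates came from separate sowings is not stated, so p-values measure the spread between these samples.

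The plant circadian clock is a loop of repressors expressed at successive times of day. CCA1 and LHY are expressed around dawn and repress genes of the afternoon and evening, many of which carry a promoter motif called the evening element, and TOC1, GI, ELF4 and LUX act later in the day. FKF1, a blue-light receptor of the afternoon, directs the degradation of CDF repressors that hold back flowering. Stomatal guard cells possess this clock and open and close the pore in daily rhythms.

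The 33 libraries held 7296381 to 60348384 counts each (median 33455383). The shallowest library was SRDX-SPCH 2 h replicate 3. The library labelled SRDX-FAMA 4 h replicate 2 differed from it by hardly more than sampling noise, with a chi-square per degree of freedom of 1.26 against 14.4 to 162 in 45 pairs of libraries of the same group. It held 9663 CPM of SPCH (counts scaled to a common library size), whereas the 11 other SRDX-FAMA libraries held 14.4 to 43.9, and it was left out. The transgenes read in the 33 libraries were those of their labels. FAMA, counted from the transgene and the plant's own gene together, was at 2181 to 6172 CPM in SRDX-FAMA against 144 to 361 in NLS, and SPCH was at 4829 to 9630 in SRDX-SPCH against 9.35 to 29.4 in NLS. In a principal component analysis of the 500 most variable genes, 58.7% of the variance lay on component 1. Time point accounted for 2.49% of that component, and the letter in the library name, whose meaning the labels do not give, for 32.1%. On component 2, with 10.6% of the variance, the letter accounted for 75.7% and time point for 0.053%. Component 3 held 5.01% of the variance, and line accounted for 70.4% of it.

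Between 2 h and 4 h, 41 genes rose and 37 fell over the 3 lines. These 78 genes were 0.315% of the 24792 tested, with 0.165% higher and 0.149% lower (edgeR's quasi-likelihood test with line as a covariate, Benjamini-Hochberg adjusted p under 0.05). A count of 2272 genes had an unadjusted p under 0.05. The changes were modest, with absolute log2 fold changes from 0.24 to 1.36, a median of 0.58 and 9 genes over 1. The count rested on the library that was left out: with it under its label, 0 genes passed by edgeR and 1734 had an unadjusted p under 0.05. Without its near copy in SRDX-SPCH as well, 28 genes passed, all of them among the 78. With DESeq2's size factors in edgeR the calls split into 39 higher and 53 lower.

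For all 78 genes the estimate at 3 h lay between those at 2 h and 4 h. It did so for 44.1% of all genes tested, but choosing genes by a large difference between 2 h and 4 h in the same fit makes a value in between likely, so nothing is read from this count. A median of 39.8% of the change was reached by 3 h. Neither step passed the test alone. From 2 h to 3 h 0 genes passed (588 with an unadjusted p under 0.05, and 0 passed by DESeq2), and from 3 h to 4 h 0 genes passed (1264 with an unadjusted p under 0.05, and 0 passed by DESeq2). The genes with the smallest p from 2 h to 3 h, none of which passed, included PRN, a pirin, with a log2 fold change of 0.82 ± 0.23 (SE), and WAVH2, a RING finger protein, with -0.41 ± 0.11 (adjusted p = 0.99999 for both by edgeR). From 3 h to 4 h they included TOZ, a WD-40 repeat protein, with 0.47 ± 0.11, and HIPP20 with -0.69 ± 0.15 (adjusted p = 0.587 for both by edgeR).

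FKF1 (AT1G68050) was the clock gene that passed the test by edgeR. In NLS its level was 23.2, 44.5 and 32.1 normalized CPM at 2 h and 43.3, 79.9, 79.2 and 64.2 at 4 h. In SRDX-FAMA it was 37.7, 37.4, 37.1 and 40.5 at 2 h and 73.1, 79.9 and 48.3 at 4 h. In SRDX-SPCH it was 31.8, 27.7, 26.1 and 29.0 at 2 h and 55.2, 75.1, 58.1 and 59.7 at 4 h. The 2 h and 4 h libraries did not overlap in either SRDX line, and in NLS the highest library at 2 h exceeded the lowest at 4 h. Over the 3 lines the log2 fold change was 0.97 ± 0.17 (SE, adjusted p = 0.00657 by edgeR), and at 3 h it was 0.48 ± 0.17 above 2 h. The rise was 0.97 in NLS, 0.83 in SRDX-FAMA and 1.11 in SRDX-SPCH.

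**Figure D1:**
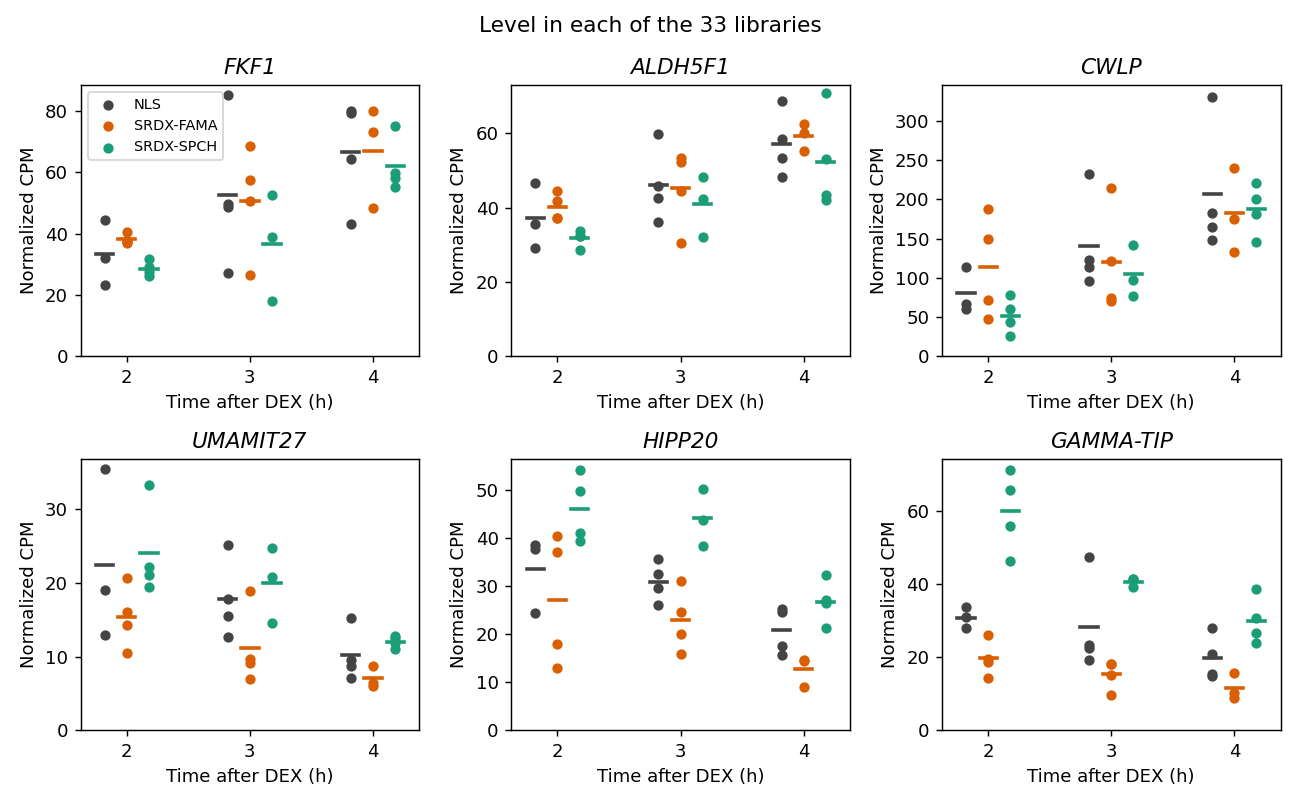
Normalized CPM (linear axes from 0) at 2, 3 and 4 h of DEX for 3 genes that rose (FKF1, ALDH5F1, CWLP) and 3 that fell (UMAMIT27, HIPP20, GAMMA-TIP). Each point is 1 of the 33 libraries, coloured by line, and short bars are the means of a line at a time point. FKF1 medians over the 11 libraries of a time point were 32.1, 49.5 and 64.2 CPM.

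The promoter of FKF1 is shown because it holds the evening element, described next, and because FKF1 was the clock gene that passed by edgeR. The 250 bases before the annotated start of FKF1 (chr1:25508389-25508638, plus strand, RefSeq TAIR10.1), with the evening element in capitals as read on this strand, were as follows.
FKF1: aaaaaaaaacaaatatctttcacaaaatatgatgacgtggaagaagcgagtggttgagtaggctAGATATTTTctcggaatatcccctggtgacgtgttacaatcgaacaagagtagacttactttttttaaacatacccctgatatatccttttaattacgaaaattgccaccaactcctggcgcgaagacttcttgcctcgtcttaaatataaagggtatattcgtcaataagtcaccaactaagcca

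The evening element, AAAATATCT on either strand, was found between 250 bases before and 50 bases after the start in 7 of the 41 genes that rose (17.1%) and in 0 of the 37 that fell. Among all 24669 genes tested with such a window the share was 2.87%. The 7 genes held 9 elements, of which 5 lay wholly before the start. Each is printed with 10 bases on either side, read in the direction in which the element runs AAAATATCT, in capitals, so that the flanks can be compared.
FKF1, element at -186 to -178 (chr1:25508443-25508471, minus strand): atattccgagAAAATATCTagcctactca
FKF1, element at 1 to 9 (chr1:25508629-25508657, minus strand): ttaaacttttAAAATATCTtggcttagtt
PRH75, element at -116 to -108 (chr5:24984142-24984170, plus strand): caaagactcaAAAATATCTtctttgttgg
PRH75, element at -79 to -71 (chr5:24984105-24984133, plus strand): caaacactcaAAAATATCTatctttcctt
AT4G16146, element at -110 to -102 (chr4:9144675-9144703, minus strand): ataaattaagAAAATATCTaaaaagctta
BET9, element at -32 to -24 (chr5:4604566-4604594, plus strand): cttcgcatctAAAATATCTattggtgtct
AT1G11170, element at -5 to 4 (chr1:3740649-3740677, plus strand): cgattcaactAAAATATCTgttattaggt
AT4G15770, element at 8 to 16 (chr4:8977892-8977920, minus strand): ctttgttttaAAAATATCTattgtcattt
ALDH5F1, element at 18 to 26 (chr1:29887379-29887407, plus strand): ttttacaagtAAAATATCTtcaaaattgg

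Positions count from 1 at the annotated start, and the base before it is -1. The CCA1 binding site, AAAAATCT, was in 22% of the windows of genes that rose, in 8.11% of those that fell and in 7.95% of all. The G-box CACGTG was in 14.6%, 13.5% and 8.1%, the morning element CCACAC in 9.76%, 8.11% and 7.86%, and the telo box AAACCCTAA in 4.88%, 0% and 3.52%. The site II element TGGGCC was in 9.76% of windows of genes that rose and in 21.6% of those that fell, against 16.5% of all. HOS1 and AT2G39805, which both fell, lie 222 bases apart on opposite strands. Their windows share bases, so the same G-box and site II elements count for both genes. A match of letters is not evidence that a factor binds there, and the lists are short. With the library letter in the fit, the evening element was in 9.8% of 51 windows of genes called higher and in 1.95% of 154 of genes called lower.

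**Figure D2:**
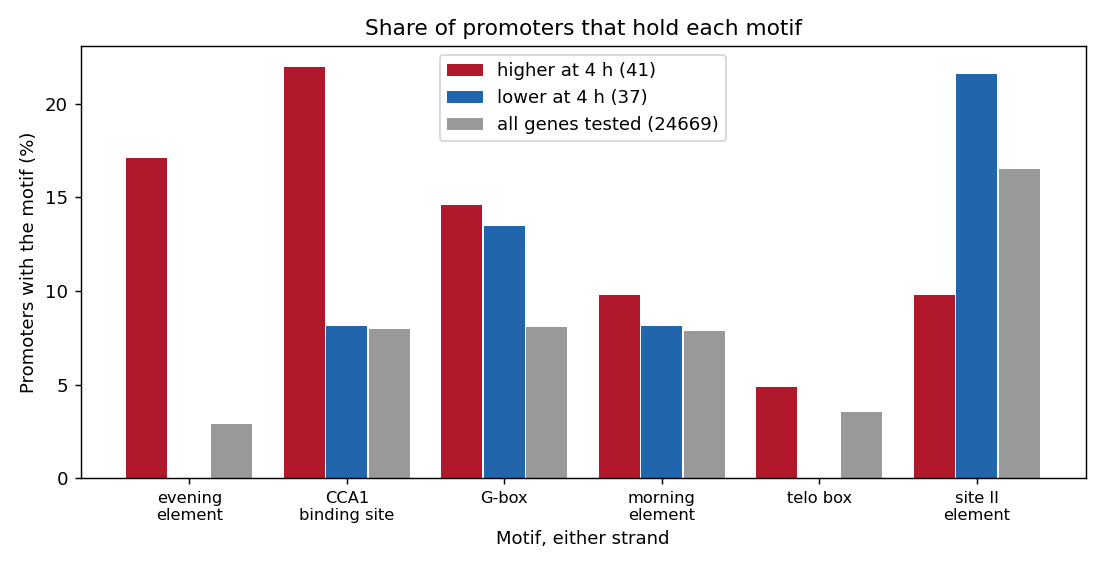
Percent of promoter windows that hold each of 6 motifs on either strand, for the 41 genes higher at 4 h, the 37 lower at 4 h and the 24669 genes tested with a window. For the evening element the bars stand at 17.1%, 0% and 2.87%.

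Among the afternoon and evening clock genes, 1 of 13 passed the test, 6 had an unadjusted p under 0.05 and 9 lay above 0, with a median log2 fold change of 0.25. Of all genes tested 0.315% passed, 9.16% had an unadjusted p under 0.05 and 52.5% lay above 0, with a median of 0.01. JMJD5, a jumonji-domain gene of the evening loop, had medians of 1.39, 1.86 and 3.11 CPM at 2, 3 and 4 h (ranges 0.865 to 2.65 at 2 h and 0.891 to 9.26 at 4 h) and a log2 fold change of 1.199 ± 0.328 (adjusted p = 0.0997 by edgeR). TOC1 went from a median of 125 CPM (105 to 164) to 149.6 (123 to 201), with 0.29 ± 0.10 (adjusted p = 0.223 by edgeR). GI, a partner of FKF1, went from 77.3 CPM (71.0 to 87.2) to 93.7 (75.8 to 119), with 0.25 ± 0.08 (adjusted p = 0.221 by edgeR). The libraries at 2 h and 4 h overlapped for JMJD5, TOC1 and GI. By DESeq2, which called 352 genes in all, JMJD5 passed as well as FKF1.

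Of the 13 morning clock genes 0 passed the test, 3 had an unadjusted p under 0.05 and 2 lay above 0, with a median log2 fold change of -0.13. With 0.315% of all genes called, 0 of 13 is what the background share gives, and the shares of all genes for the other counts were 9.16% and 52.5%. CCA1 had medians of 84.2, 51.9 and 44.3 CPM at 2, 3 and 4 h (35.8 to 141 at 2 h, 16.6 to 119 at 4 h), with -0.60 ± 0.26 (adjusted p = 0.426 by edgeR). LHY had medians of 15.6, 8.45 and 6.68 CPM (4.91 to 25.4 at 2 h, 1.43 to 20.7 at 4 h), with -0.91 ± 0.35 (adjusted p = 0.352 by edgeR). LNK3 (AT3G12320), of a family of clock coactivators, had medians of 37.3, 25.7 and 24.1 CPM, with -0.53 ± 0.20 (adjusted p = 0.319 by edgeR). The ranges of these genes at 2 h and 4 h overlapped broadly. PRR7, PRR9, LNK1, LNK2 and LNK4 lay between -0.06 and 0.05. In all 16 alternative settings of the fit the median of the morning genes was below 0 (-0.23 to -0.08) and that of the afternoon and evening genes above 0 (0.17 to 0.27).

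The clock outputs had 0 of 15 genes past the test, which 0.315% of all genes passed, and a median log2 fold change of -0.02. CDF2, one of the repressors that FKF1 targets, had medians of 33.3, 25.0 and 20.9 CPM and a log2 fold change of -0.53 ± 0.13 (adjusted p = 0.0689 by edgeR, and 0.043 with the library letter as a term). GRP7, an RNA-binding protein with a daily rhythm, had medians of 131, 197 and 181 CPM, with 0.61 ± 0.18 (adjusted p = 0.140 by edgeR). Among light response genes 0 of 22 passed, and 3 lay above 0, against 52.5% of all genes tested. CHS (AT5G13930), the entry enzyme of flavonoid synthesis, had medians of 40.9, 30.2 and 23.3 CPM, with -1.16 ± 0.30 (adjusted p = 0.0773 by edgeR, and 0.0151 with the letter). ELIP2, an early light-induced protein, had -0.82 ± 0.21 (adjusted p = 0.0748, and 0.0344 with the letter). By DESeq2, which called 352 genes in all, GRP7 passed as higher and CDF2, CHS and ELIP2 as lower.

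**Figure D3:**
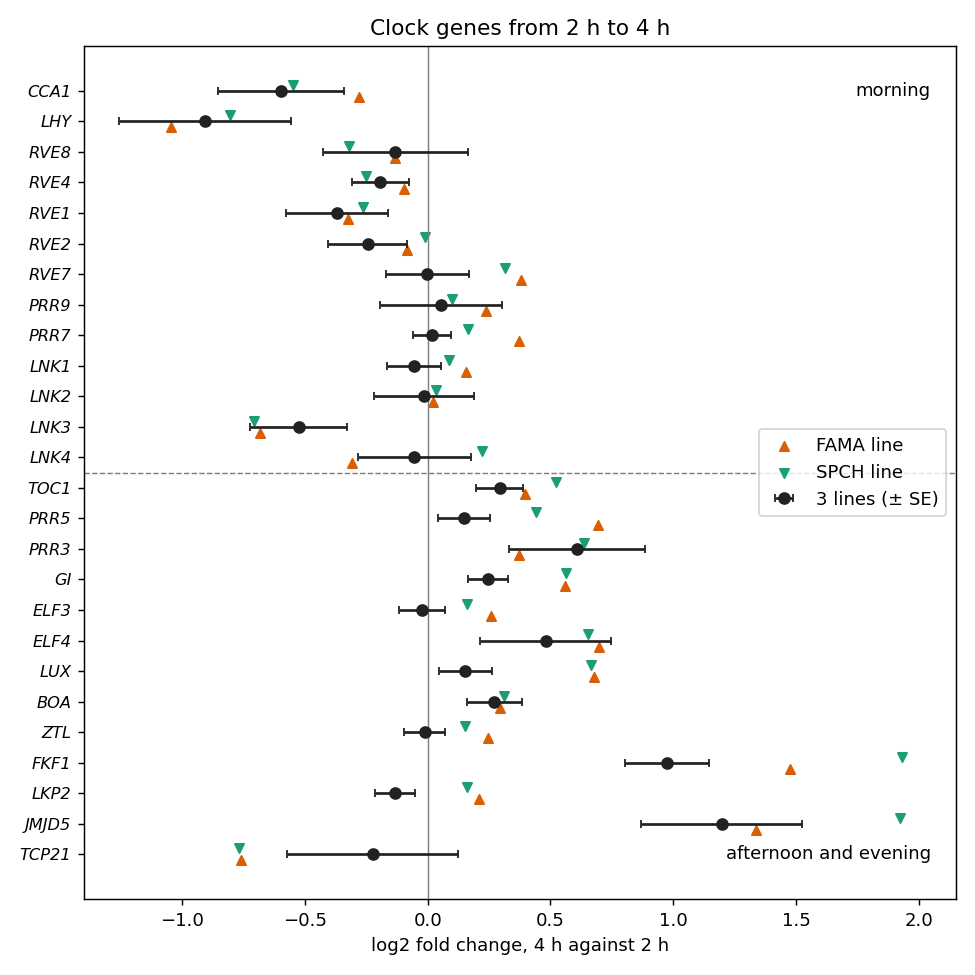
Log2 fold change from 2 h to 4 h of 13 morning and 13 afternoon and evening clock genes. Circles with bars are the estimate over the 3 lines ± SE, and triangles are the FAMA and SPCH lines. FKF1, at 0.97 ± 0.17, is the circle that passed the test by edgeR.

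The other genes with the smallest adjusted p that rose serve varied functions. ALDH5F1, a mitochondrial enzyme of the GABA shunt, had 28.6, 35.5 and 46.8 CPM as lowest, median and highest library at 2 h, 30.5, 44.6 and 59.9 at 3 h and 42.2, 55.2 and 70.9 at 4 h. Its libraries at 2 h and 4 h did not overlap within any of the 3 lines, and the log2 fold change was 0.63 ± 0.10 (adjusted p = 0.00609 by edgeR). The same lack of overlap in each line held for AT2G23910, MEE25 and GAUT15, 4 of the 78 genes, while it held for 0.0242% of all genes tested. The 78 genes were chosen by the difference between 2 h and 4 h in these same libraries, so nothing is read from this count. LETM1, a protein of the inner mitochondrial membrane, had medians of 18.9, 24.6 and 31.3 CPM, with 0.70 ± 0.11 (adjusted p = 0.00609 by edgeR).

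CWLP, which links cell wall and plasma membrane, rose most among the 12 higher genes named by rule. Its libraries ranged from 26.5 to 188 CPM at 2 h (median 66.9), from 71.1 to 232 at 3 h (median 114) and from 133 to 330 at 4 h (median 182). The log2 fold change was 1.296 ± 0.251 (adjusted p = 0.0140 by edgeR). CWLP overlaps AT3G22121 on the other strand over 1372 bases, and whether counting used strand is not stated, so reads of the pair cannot be told apart. AT4G23680, of the polyketide cyclase family, had medians of 71.3, 109 and 125 CPM, with 0.87 ± 0.17.

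The bHLH gene AT5G57150 had medians of 35.7, 36.9 and 50.9 CPM (0.58 ± 0.10). The NAC transcription factors NAC001 and NAC047 had medians of 28.8, 34.7 and 45.9 CPM (0.68 ± 0.12) and of 5.90, 6.98 and 10.11 CPM (0.76 ± 0.15). PRH75, a DEAD-box RNA helicase whose evening elements are printed above, had medians of 91.3, 115 and 130.4 CPM (0.50 ± 0.09). PUM5, an RNA-binding Pumilio protein, had 0.44 ± 0.09, and SUVR5, a histone methyltransferase-type protein, 0.45 ± 0.09. SUVR5 overlaps the also higher AT2G23755 by 612 bases and AT2G07950 by 1873 bases, both on the other strand. How reads in an overlap were counted is not given, so SUVR5 and AT2G23755 are not taken as separate pieces of evidence. ACD32.1, with the fold of small heat shock proteins, had medians of 20.8, 31.5 and 34.9 CPM (0.63 ± 0.13). The adjusted p of these 7 named genes was 0.0178 or lower by edgeR. SCA3 and MGP3, which encode organelle RNA polymerases and were chosen after their values were seen, also rose, with 0.39 ± 0.08 and 0.44 ± 0.10 (adjusted p = 0.0298 and 0.0451 by edgeR). With the letter MGP3 did not pass (adjusted p = 0.059 by edgeR).

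**Figure D4:**
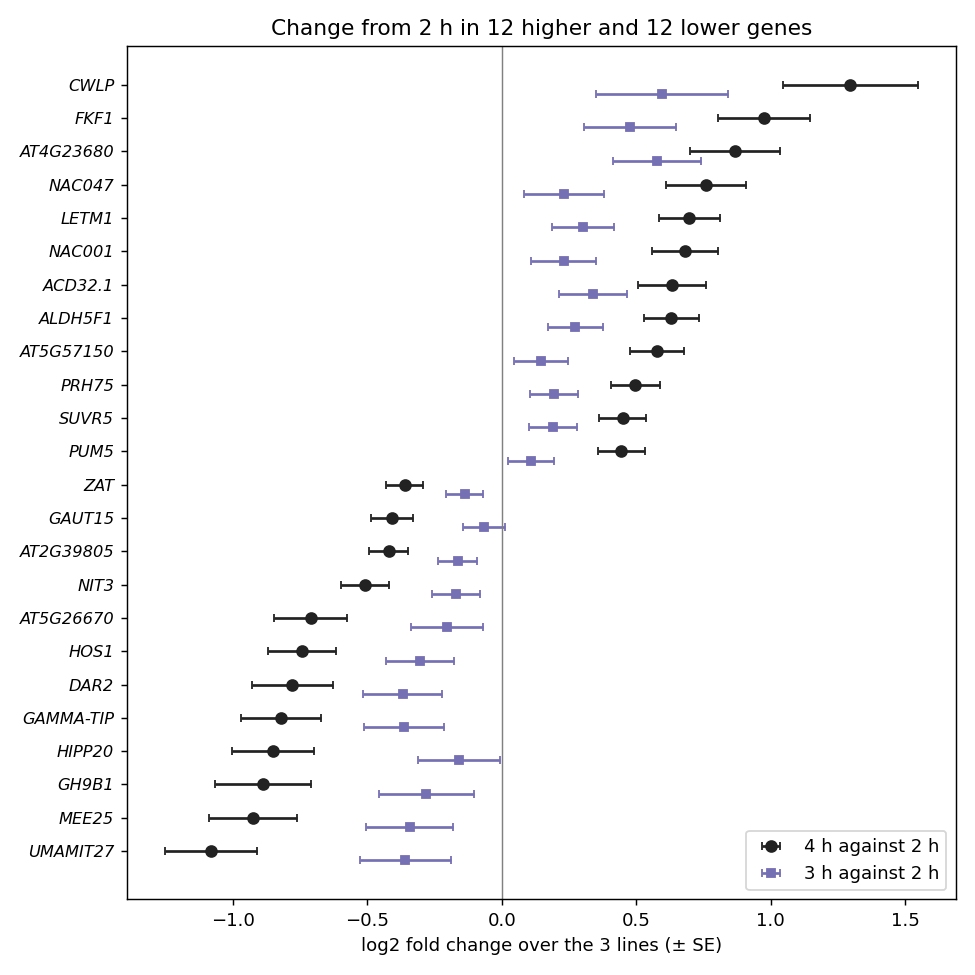
Log2 fold change ± SE over the 3 lines from 2 h to 4 h (circles) and from 2 h to 3 h (squares) for the 12 higher and 12 lower genes named by rule. Each square lies between 0 and its circle, which the choice of genes makes likely. As examples, FKF1 stands at 0.48 of 0.97 and HIPP20 at -0.16 of -0.85.

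UMAMIT27, of a family of amino acid transporters, had 10.4, 19.5 and 35.4 CPM as lowest, median and highest library at 2 h, 6.95, 15.5 and 25.1 at 3 h and 6.04, 9.50 and 15.3 at 4 h. The log2 fold change was -1.08 ± 0.17 (adjusted p = 0.00609 by edgeR), with -1.16 in NLS, -1.09 in SRDX-FAMA and -0.99 in SRDX-SPCH. GAMMA-TIP, a water channel of the vacuolar membrane, was at 27.9 to 33.8 CPM at 2 h and 14.9 to 27.9 at 4 h in NLS, at 14.2 to 26.1 and 8.79 to 15.8 in SRDX-FAMA, and at 46.5 to 71.3 and 23.8 to 38.7 in SRDX-SPCH. It fell by 0.82 on the log2 scale (SE 0.15, adjusted p = 0.00747 by edgeR) although the lines stood at different levels. ZAT, a zinc transporter, had medians of 126, 112 and 92.1 CPM (-0.36 ± 0.07).

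GH9B1, a glycosyl hydrolase of the endoglucanase family, had medians of 188, 179.9 and 117 CPM (-0.89 ± 0.18). With the library letter as a term GH9B1 had -0.56 ± 0.15 and did not pass (adjusted p = 0.0607 by edgeR), the only one of the 24 genes named by rule that lost its call in that fit. AT5G26670, a pectin acetylesterase, had 19.2, 16.2 and 11.7 CPM (-0.71 ± 0.13), and GAUT15, a galacturonosyltransferase, 19.9, 19.0 and 15.2 CPM (-0.41 ± 0.08). GAUT15 overlaps SHP1, which also fell, by 447 bases on the other strand. MEE25, a Rossmann-fold protein, had 6.94, 5.69 and 3.80 CPM (-0.92 ± 0.16), and NIT3, a nitrilase, 24.5, 20.19 and 17.5 CPM (-0.51 ± 0.09). The adjusted p of these 5 genes was 0.0212 or lower by edgeR.

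Of the named genes that fell, 3 are neighbours on chromosome 2. HOS1, a ubiquitin ligase known from cold signalling, lies 222 bases from AT2G39805, a Yip1 family gene, and 1620 bases from DAR2, of a family that controls organ size. HOS1 had medians of 120.3, 120.4 and 88.2 CPM (-0.74 ± 0.13), AT2G39805 57.2, 55.1 and 45.4 CPM (-0.42 ± 0.07) and DAR2 12.5, 9.66 and 8.34 CPM (-0.78 ± 0.15). The gene between HOS1 and DAR2, AT2G39820, had -0.13 (unadjusted p = 0.566 by edgeR). The adjusted p of the 3 genes was 0.0139 or lower by edgeR. Over the 78 genes, 25 overlap another annotated gene, 20 of them one on the other strand. The share over all genes tested is not given, so nothing is read from this count. Among the named genes, MEE25 overlaps AT2G08690 by 582 bases and GAUT15 overlaps AT3G58795 by 867 bases, both on the other strand.

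A list of 23 genes that the study chose as targets of SPCH or FAMA, in part from libraries of this series, was followed in the 3 lines. Both members that passed the test fell, 22 of the 23 lay below 0 and the median log2 fold change was -0.14. That median was -0.45 in NLS, -0.31 in SRDX-FAMA and -0.02 in SRDX-SPCH. By DESeq2 GRP7 passed as well, and it rose. Without NLS 7 of the 23 lay above 0, without the SRDX-FAMA line 6 and without the SRDX-SPCH line 2. Of all genes tested, 47.5% lay below 0 and 0.315% passed. With the library letter as a term, 8 of the 23 lay above 0 and the median was -0.09. HIPP20, a heavy metal-associated protein, was at 37.7, 24.3 and 38.5 CPM at 2 h and 15.7, 17.62, 24.7 and 25.1 at 4 h in NLS. In SRDX-FAMA it was at 18.02, 13.0, 37.2 and 40.4 at 2 h and 14.7, 14.5 and 9.05 at 4 h. In SRDX-SPCH it was at 41.0, 39.4, 54.3 and 49.9 at 2 h and 21.2, 32.2, 26.4 and 27.1 at 4 h. Only the SRDX-SPCH libraries did not overlap, and the log2 fold change over the 3 lines was -0.85 ± 0.15 (adjusted p = 0.00747 by edgeR).

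SAUR71 (AT1G56150), of a family of small auxin-responsive genes, was the other member that passed by edgeR. It was at 2.68, 2.42 and 2.41 CPM at 2 h and 1.77, 1.39, 0.541 and 1.87 at 4 h in NLS, and at 7.66, 3.15, 2.43 and 2.42 at 2 h and 1.197, 1.62 and 1.28 at 4 h in SRDX-FAMA. In SRDX-SPCH it was at 1.96, 4.48, 1.53 and 2.38 at 2 h and 0.576, 0.922, 1.08 and 2.80 at 4 h. The libraries overlapped in SRDX-SPCH only. The log2 fold change was -1.10 ± 0.26, just inside the threshold (adjusted p = 0.0496 by edgeR). SAUR71 passed in only 7 of the 33 fits with 1 library left out, and not in that without the near copy in SRDX-SPCH. Its largest adjusted p in these fits was 0.102 by edgeR, without NLS 2 h replicate 1. In the FAMA line SAUR71 changed by -2.76, and the difference from the 3 lines was -1.66 ± 0.57 (adjusted p = 0.536 by edgeR).

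The 78 genes were then read in the FAMA and SPCH lines, whose libraries the fit of the 3 lines did not use. The library letters of the SPCH line were a, b, d and e at 2 h and a, c, d and f at 4 h. As in the 3 lines, b was thus absent at 4 h and c at 2 h. Those of the FAMA line were a, d, e and f at 2 h and a, d and f at 4 h, with a further library of no known letter. The part of this shared layout in the counts below was not tested. In the SPCH line 76 of the 78 genes moved in the same direction from 2 h to 4 h, against 58.07% of all genes, and 55 did so with an unadjusted p under 0.05, against 6.02% of all. In the FAMA line 68 moved in the same direction, against 59.93% of all genes, and 30 did so with an unadjusted p under 0.05, against 10.2% of all. The 41 genes that rose had a median log2 fold change of 0.59 in SPCH and 0.43 in FAMA, beside 0.58 in the 3 lines. The 37 that fell had medians of -0.72 and -0.32, beside -0.59. FKF1 was at 27.7, 21.4, 31.7 and 22.7 CPM at 2 h and 118, 76.1, 68.7 and 132 at 4 h in the SPCH line (1.93, adjusted p = 0.0038 by edgeR), and at 42.6, 17.5, 30.5 and 27.1 at 2 h and 72.0, 106, 86.9 and 62.7 at 4 h in the FAMA line (1.48, adjusted p = 0.0178 by edgeR). The difference of the FKF1 change from the 3 lines was 0.96 ± 0.37 for SPCH and 0.50 ± 0.36 for FAMA, and neither passed the test.

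**Figure D5:**
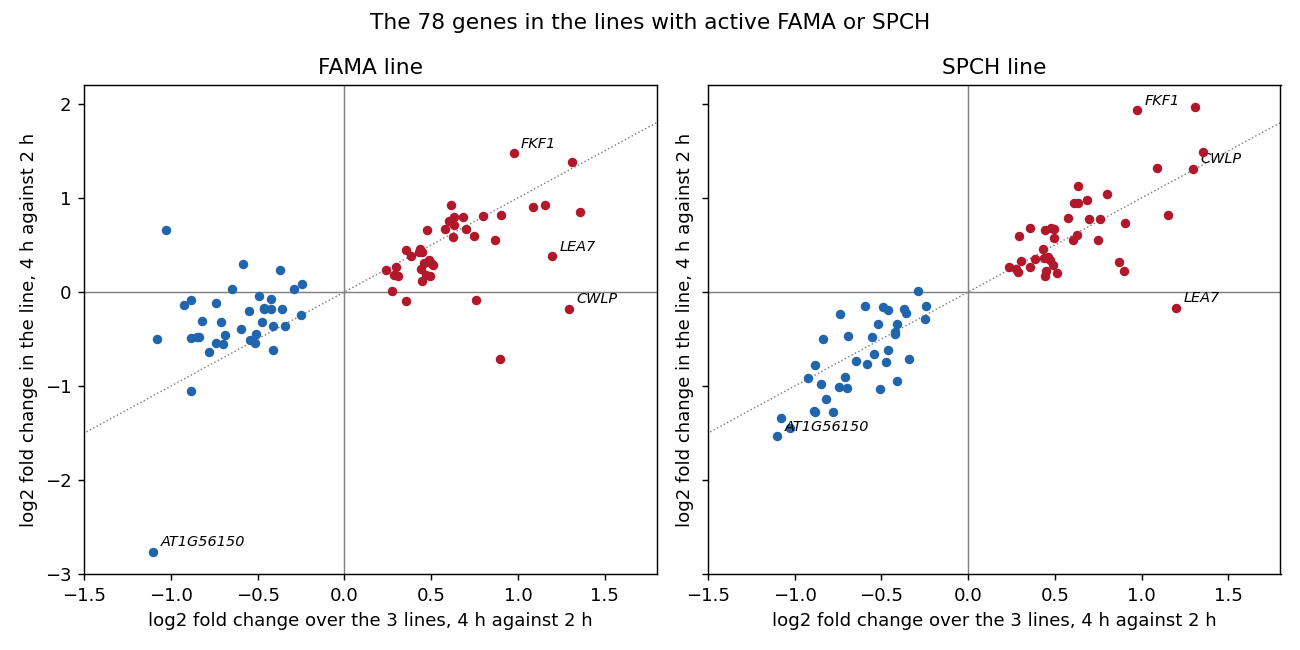
Log2 fold change from 2 h to 4 h of the 78 genes over the 3 lines (x axis) against the FAMA line and the SPCH line (y axes), with red for genes that rose and blue for genes that fell over the 3 lines and a dotted line of equality. In the SPCH panel 76 genes share the direction, and in the FAMA panel 68 do.

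The reverse reading started from genes that DESeq2's Wald test, as the study ran it, called over time within each active line. Of 102 genes higher at 4 h in SPCH, all 102 lay above 0 in the 3 lines, with a median of 0.30 beside 0.77 in SPCH itself, and 14 were among the genes called there (13.7% of the SPCH list and 17.9% of the 78). Of 67 genes lower in SPCH, 64 lay below 0 in the 3 lines, with a median of -0.33 beside -0.94, and 13 were called there (19.4%). For the FAMA line, 301 of 341 higher genes (88.3%) and 635 of 748 lower genes (84.9%) had the same sign in the 3 lines. Their medians there were 0.15 and -0.15, beside 0.51 and -0.85 in FAMA, and 11 and 3 of them were called (3.23% and 0.401% of these lists). In the 3 lines 0 genes of these lists were called in the opposite direction. Over all genes tested 0.165% were called higher and 0.149% lower, so nothing is read from that 0. The sign in the 3 lines was that in SPCH for 58.07% of all genes and that in FAMA for 59.93%, and 52.5% lay above 0.

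The changes of the active lines minus that of the 3 lines were tested directly. For SPCH 0 of 25272 genes passed by edgeR (567 with an unadjusted p under 0.05), and 0 passed by DESeq2. For FAMA 0 passed by edgeR (1533 with an unadjusted p under 0.05, smallest adjusted p = 0.114), and 33 passed by DESeq2, 5 higher and 28 lower in FAMA. The smallest p belonged to genes whose products are ribosomal proteins, such as AT5G62300 with a difference of -0.71 ± 0.14 and RPL27AB with -0.58 ± 0.12 (adjusted p = 0.114 and 0.126 by edgeR). Without FAMA 2 h replicate 4, 33 genes passed by edgeR, all lower in FAMA. A difference that did not pass is not shown to be absent.

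Among the 78, 10 genes had another sign in the FAMA line. CWLP was at 263, 261, 171 and 325 CPM at 2 h and 269, 229.8, 189 and 214 at 4 h in FAMA, above most libraries of the 3 lines at 2 h, and its change there was -0.18. The difference of this change from the 3 lines was -1.47 ± 0.43 (unadjusted p = 0.00125, adjusted p = 0.322 by edgeR). PHO1, a phosphate exporter, changed by -0.59 in the 3 lines and by 0.30 in FAMA, and SRF6, a receptor-like kinase, by -0.37 and 0.23 (adjusted p = 0.238 for either difference by edgeR).

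Whether the change differed among NLS, SRDX-FAMA and SRDX-SPCH was tested with 2 degrees of freedom. By edgeR 0 genes passed (548 with an unadjusted p under 0.05, smallest adjusted p = 0.99983), and 0 passed by DESeq2. Each line alone gave 0 genes by edgeR, with 1476, 740 and 1279 at an unadjusted p under 0.05 in NLS, SRDX-FAMA and SRDX-SPCH. All 78 genes had the same sign in each of the 3 lines, which 35.7% of all genes did, but the fit that called them used these same values.

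The letter in the library name was uneven over time, with letter a absent at 3 h, b at 4 h and c at 2 h. Libraries that share a letter deviated together, with a mean correlation of their deviations from the group means of 0.227 over 82 pairs (52 over 0.1), against -0.046 over 401 pairs of other letters. The fit that called the 78 genes has no term for the letter. With the letter as a term, 205 genes passed between 2 h and 4 h (0.827% of those tested), 51 higher (0.206%) and 154 lower (0.621%). Of the 78 genes, 61 passed in both fits (78.2% of the 78 and 29.8% of the 205), and all 78 kept their sign. Genes that passed with the letter included TIP2;2, another vacuolar water channel, at -1.69 ± 0.20, and RD22, a dehydration-responsive gene, at -1.58 ± 0.20 (adjusted p = 0.000101 and 0.00013 by edgeR). Without the letter TIP2;2 had -1.35 and RD22 -1.22 (adjusted p = 0.0851 and 0.377 by edgeR). From 3 h to 4 h 21 genes passed with the letter (0.0847%), all lower, among them UMAMIT27 (-0.65 ± 0.13) and GAMMA-TIP (-0.66 ± 0.13).

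Of 24 gene lists, 21 had 0 members past the test. With 0.315% of all genes tested past it, 0 is near the background share for a short list. With the library letter as a term, 6 of these 21 lists had members that passed, 8 in all and each lower. They were 2 light response genes, 2 abscisic acid and cold response genes, and 1 gene each of clock outputs, touch and wound response, DNA replication and S phase, and pavement cell and epidermis. With the letter 0.827% of all genes tested passed, 0.206% higher and 0.621% lower, so lower calls prevailed over all genes too. The 21 lists included touch and wound response (21 genes, median log2 fold change -0.10), jasmonate response (20, median 0.08), heat shock and folding (23, median -0.09), sugar starvation and dark (20, median -0.09), starch metabolism (26, median -0.03) and abscisic acid and cold response (24, median -0.08). The auxin response list had 1 lower member of 24, SAUR71, and a median of -0.18. Nuclear photosynthesis genes had 2 of 46 above 0, against 52.5% of all genes tested, and a median of -0.24. This median was -0.58 in NLS and 0.05 in SRDX-FAMA. Mitosis and cytokinesis genes had a median of -0.05, which was -0.55 in NLS and 0.37 in SRDX-SPCH.

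Markers of the cells that the sort could hold were given as summed levels per library. Of the 14 stomatal lineage genes, 12 were summed. They had a median of 899, 869 and 834 CPM at 2, 3 and 4 h (478 to 1284 at 2 h, 555 to 952 at 4 h). FAMA itself had medians of 321, 241 and 200 CPM in NLS (234 to 361 at 2 h, 144 to 259 at 4 h). In SRDX-SPCH the FAMA medians were 267, 309 and 272 CPM, and in SRDX-FAMA, transgene included, 4809, 4052 and 3548 CPM. The 14 guard cell markers summed to 2325, 2207 and 2101 CPM (1411 to 3067 and 1368 to 3307). The 5 myrosin cell markers summed to 30689, 33411 and 39914 CPM (12484 to 56300 at 2 h, 19944 to 55160 at 4 h). Taken singly, 2 of these 5 lay above 0, with a median log2 fold change of -0.05 (-0.13 to 0.28), so the rise of the sum is not that of most members. The 7 mesophyll markers summed to 2722, 2782 and 2240 CPM (1715 to 4505 and 1081 to 3788), the 9 pavement cell and epidermis markers to 847, 853 and 797 CPM and the 6 vascular markers to 63.1, 57.0 and 55.3 CPM. The ranges at 2 h and 4 h overlapped for each list, 0 of their members passed the test without the letter (1 pavement cell and epidermis gene passed with it), and none was at 0 in every library. Of all genes tested 0.315% passed without the letter and 0.827% with it. In sorted pools, a change in the mix of cells and a change in RNA per cell cannot be told apart, and the part of these markers in the results was not tested.

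Plastid-encoded genes took 0.186% to 0.523% of counts at 2 h and 0.202% to 0.647% at 4 h. The mean difference of 0.051 percentage points was within the spread (exact permutation test within lines, two-sided, p = 0.391, adjusted over 3 library values 0.679). The mitochondria-encoded share and total counts gave p = 0.517 and 0.679 by the same exact test.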

How the data were processed

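Venus-positive cells of 5 inducible lines were sequenced in 57 libraries, and the 33 of NLS, SRDX-FAMA and SRDX-SPCH were analysed here. The authors aligned reads to TAIR10 with STAR, counted them with HTSeq and deposited raw counts per gene, without normalization or pooling. Versions, annotation release and strand setting are not given in the sources used here. SMART-Seq reads carry no molecular identifiers, so depth reflects reads after amplification. Counts per library ranged from 7296381 to 60348384. Of the columns, 0 were left out as unmapped, and 1 column could be tied to FAMA at 4 h but to no replicate.

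Genes were filtered with filterByExpr (minimum count 10), scaled by TMM and tested with edgeR's quasi-likelihood test on line and time, with Benjamini-Hochberg adjustment over all genes and a threshold of 0.05. A further fit added the library letter. FAMA and SPCH were compared with the 3 lines in a fit of 56 libraries by line and time point. Normalized CPM were computed from TMM-scaled library sizes over those 56 libraries. The work was done in R 4.3.3 with DESeq2 1.42.0, edgeR 4.0.16 and limma 3.58.1, and the code was tested on simulated data. The genes named were the 12 with the smallest adjusted p in each direction that had 1 sign in the 3 lines and a mean of at least 5 CPM, the smallest p of other contrasts, clock genes, and called members of lists. The members, lists and rules were chosen with earlier results of these data known. Gene names and sequences come from RefSeq TAIR10.1, to which 27445 of 27655 identifiers matched.

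The alternatives were DESeq2, its size factors, no filter on low counts, a minimum of 10 counts throughout, the letter, a replicate block, the left-out library under its label, its near copy left out, other tests (likelihood ratio, limma-voom), time as a number, each line and each library left out, the plastid percentage as a covariate, 1 fit of 5 lines and a threshold of 0.1.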

Additional observations from a re-analysis of the deposited data

Results flagged for a closer look

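Among 60 groups of 4 libraries examined for a sample far from the others, 2 had one, and chance flags about 1 in 20 groups. SAUR71 (AT1G56150) was at 7.66 CPM in SRDX-FAMA 2 h replicate 1, and at 2.42 to 3.15 in the 3 other libraries of the group. GAMMA-TIP was at 47.5 CPM in NLS 3 h replicate 4, and at 19.3 to 23.4 in the others. SPCH stood at 9663 CPM in the library labelled SRDX-FAMA 4 h replicate 2, which was left out of the comparisons apart from the alternative that keeps it under its label, against 9.35 to 29.4 in NLS and 14.4 to 43.9 in the other SRDX-FAMA libraries.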

How the results depend on the processing

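The 78 genes kept their sign in the 16 other settings of the fit and with each library left out wherever they were tested, which left out 6 values (5 with at least 10 counts in every library and 1 with DESeq2). Of the 3816 values obtained, 2312 were past the threshold and 1504 were not. The count changed more. It was 352 with DESeq2, 178 with edgeR's likelihood ratio test, 46 with limma-voom, 43 without a filter, 209 with at least 10 counts in every library, 205 with the letter, 161 with the plastid percentage, 33 in 1 fit of the 5 lines and 229 at a threshold of 0.1. It was 13 without NLS, 1 without the SRDX-FAMA line, 0 without the SRDX-SPCH line, 0 with SRDX-FAMA 4 h replicate 2 under its label and 28 without SRDX-SPCH 2 h replicate 3 as well. Replicate numbers pair no samples by the labels, and same-numbered libraries deviated together little (mean r = 0.017 over 121 pairs, 47 over 0.1), whereas libraries of 1 letter deviated together (mean r = 0.227 over 82 pairs). The replicate block gave 144 genes, all 78 included. With DESeq2's size factors 92 genes passed.

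With 1 library left out the count ranged from 24 to 158, and 22 genes passed in every such fit. It fell below 52 without NLS 2 h replicate 1 (24) or 3 (41), NLS 4 h replicates 1 (40), 2 (29) or 3 (40), SRDX-FAMA 2 h replicates 3 (38) or 4 (37), SRDX-FAMA 3 h replicates 3 (50) or 4 (46), SRDX-FAMA 4 h replicates 1 (49), 3 (32) or 4 (36), SRDX-SPCH 2 h replicates 3 (28) or 4 (48), SRDX-SPCH 3 h replicates 1 (40) or 3 (36) and SRDX-SPCH 4 h replicates 1 (50), 2 (47) or 3 (33). It rose without NLS 2 h replicate 2 (158) or SRDX-FAMA 2 h replicate 2 (138). The cause was not tested.

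With the letter, the 205 genes became 329 with at least 10 counts in every library and 649 with DESeq2. They ranged from 84 to 472 with a library left out, leaving the 1.5-fold range without NLS 2 h replicates 2 (472) or 3 (99), SRDX-FAMA 2 h replicate 3 (129), SRDX-FAMA 4 h replicates 1 (84) or 4 (110.0), SRDX-SPCH 2 h replicate 2 (92), SRDX-SPCH 3 h replicate 1 (114) or SRDX-SPCH 4 h replicate 3 (95). From 3 h to 4 h the letter raised 0 genes to 21. For FAMA minus the 3 lines, 0 genes became 33 with DESeq2, 4 with at least 10 counts in every library, 4 with the letter and 0 to 33 with a library left out, 33 without FAMA 2 h replicate 4. Counts of 0 from 2 h to 3 h, among the 3 lines and for SPCH minus the 3 lines stayed 0 in each alternative run. The plastid difference lay between 0.0233 and 0.0821 points with a library left out. The library left out was sequenced to a low depth, as was its near copy, and genes with few counts limit the precision there.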
